A study of Mus musculus with 6 samples.

Results

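Guanylate-binding proteins (GBPs) and immunity-related GTPases (IRGs) are 2 families of interferon-induced GTPases. The results below cover 10 of their genes in mouse colon: Gbp2, Gbp3, Gbp4, Gbp7, Gbp8, Gbp9, Irgm1, Irgm2, Igtp and Iigp1. They were chosen by name, as members of these families and with no threshold on their values, from 35275 genes in the deposited tables, and all 10 were found there once each. RNA was taken from colon tissue of C57BL/6 mice after 6 h of treatment with phosphate-buffered saline (PBS), with the wild-type cytokine interleukin-22 (here WT IL-22) or with 22-B3, an engineered variant of it. Both proteins were given at 200 µg per mouse. Each group had 2 libraries, and n = 2 holds for every mean below. The labels give neither age nor sex, nor do they say whether the libraries of a group are from different mice. The p-values therefore describe the spread between libraries, part of which may be technical.

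GBPs are large GTPases that assemble on the membranes of vacuoles holding intracellular microbes and on bacteria that reach the cytosol. IRGs fall into effectors, such as Iigp1 (Irga6), which coat and break such vacuoles, and regulators, Irgm1, Irgm2 and Igtp (Irgm3), which sit on host membranes and keep the effectors inactive there. Interferon-γ is the best known inducer of both families in mouse cells, whereas IL-22 signals mainly through Stat3 in epithelial cells, which carry its receptor.

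Positions are those of the deposited tables, in build mm10. Gbp7 (ENSMUSG00000040253, chr3:142530338-142550083), Gbp3 (ENSMUSG00000028268, chr3:142560052-142573209) and Gbp2 (ENSMUSG00000028270, chr3:142620602-142638008) lie in this order in 1 cluster on the plus strand. Gbp4 (ENSMUSG00000079363, chr5:105115767-105139586), Gbp8 (ENSMUSG00000034438, chr5:105014153-105139540) and Gbp9 (ENSMUSG00000029298, chr5:105078394-105139539) overlap on the minus strand of chromosome 5. Irgm1 (ENSMUSG00000046879, chr11:48861968-48871683, minus strand) stands apart from the overlapping pair Igtp (ENSMUSG00000078853, chr11:58199556-58207591) and Irgm2 (ENSMUSG00000069874, chr11:58199618-58222779, both on the plus strand). The remaining gene, Iigp1, lies elsewhere and is placed where its values are given. The counting program and its strand setting are not given in the sources used here, which leaves reads from overlapping or near-identical stretches without a certain gene. In the GENCODE M21 transcripts, the share of 50-base words that also occur in another gene was 18.21% for Gbp8, 12.85% for Gbp7, 12.79% for Gbp4 and 12.32% for Igtp. It was 8.31% for Gbp9, 7.36% for Irgm2, 4.79% for Gbp3, 3.19% for Iigp1, 2.07% for Gbp2 and 0% for Irgm1. By this share, values of Gbp4, Gbp8, Gbp9, Gbp7 and Igtp are the less certain ones. Gbp3 and Irgm2 are not free of the limit either. The whole of Gbp3 lies within the deposited model named Gbp5, on the same strand, and Irgm2 shares 162 exon bases with Igtp.

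Interferon-responsive genes often carry an interferon-stimulated response element (ISRE) or a gamma-activated site (GAS), the binding sequences of interferon regulatory factors and of STAT dimers. A RefSeq table of promoters (GRCm38.p6, 250 bases before to 50 bases after each annotated start) held 7 windows for 6 of the 10 genes, with 2 starts for Gbp3. Gbp4, Gbp8, Gbp9 and Iigp1 had no entry. The windows were searched for GAAANNGAA on both strands (ISRE-like) and for the palindromic TTCNNNGAA (GAS-like). The 250 bases before the start are shown for Gbp2 and Irgm1, the genes that passed the test below, for Gbp7, from the same cluster as Gbp2, and for Irgm2, a relative of Irgm1. They run 5′ to 3′ on the gene's strand, with matches to either pattern in capitals.
Gbp2 (chr3:142620413-142620662): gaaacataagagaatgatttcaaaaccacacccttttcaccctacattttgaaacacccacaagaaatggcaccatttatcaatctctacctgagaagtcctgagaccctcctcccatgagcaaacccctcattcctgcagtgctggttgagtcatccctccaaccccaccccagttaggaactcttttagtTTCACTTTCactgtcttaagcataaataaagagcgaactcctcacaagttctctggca
Gbp7 (chr3:142530086-142530335): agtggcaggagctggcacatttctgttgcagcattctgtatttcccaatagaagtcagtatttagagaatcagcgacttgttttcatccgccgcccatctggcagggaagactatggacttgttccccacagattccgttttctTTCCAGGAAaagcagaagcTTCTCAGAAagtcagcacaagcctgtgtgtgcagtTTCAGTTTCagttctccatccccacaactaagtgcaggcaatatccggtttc
Irgm1 (chr11:48871421-48871670): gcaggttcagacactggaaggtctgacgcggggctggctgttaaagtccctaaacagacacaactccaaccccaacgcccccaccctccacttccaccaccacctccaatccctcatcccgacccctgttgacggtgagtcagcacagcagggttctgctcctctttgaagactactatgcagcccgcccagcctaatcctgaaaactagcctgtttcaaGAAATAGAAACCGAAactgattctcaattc
Irgm2 (chr11:58214727-58214976): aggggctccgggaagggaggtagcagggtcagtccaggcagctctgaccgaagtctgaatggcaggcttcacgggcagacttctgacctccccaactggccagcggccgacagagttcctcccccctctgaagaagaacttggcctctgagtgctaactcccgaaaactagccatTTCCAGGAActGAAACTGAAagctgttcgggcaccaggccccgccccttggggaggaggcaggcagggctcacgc

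Gbp2 had 1 ISRE-like match, 58 to 50 bases before the RefSeq start, and no GAS-like match. The deposited and GENCODE M21 models of Gbp2 start farther upstream, at chr3:142620602, so this match lies just inside them. In Irgm1, a pair of ISRE-like matches overlapped between 30 and 16 bases before the start. Gbp3 likewise had an overlapping pair, between 44 and 30 bases before its first start, and no match at its other start. Gbp7 had an ISRE-like match 52 to 44 bases before the start and 2 GAS-like matches farther upstream. Irgm2 and Igtp each had a GAS-like match followed, after 2 bases, by an ISRE-like match. For Gbp7, Irgm2 and the other start of Gbp3, the first bases after the RefSeq start were not found near the beginning of a GENCODE M21 transcript. This check compared letters and not start positions. For Gbp7 the bases shown end at chr3:142530335, and the GENCODE M21 model starts at 142530342. The Irgm1 and Irgm2 windows lie inside the deposited spans of these genes, as does the window at the other start of Gbp3. The matches in Irgm1 and Irgm2 are thus upstream of the RefSeq start but within the deposited gene. In all, 6 of the 7 windows held the ISRE-like pattern, against 8.56% of 32851 windows in the table, and 3 held the GAS-like pattern, against 8.3%. Both patterns together were present in those same 3 windows and in 1.07% of all windows. The Irgm2 and Igtp windows are near-identical over long stretches, among them the one with the matches, so they do not count as separate cases. Gbp3 and Gbp7, which lie in 1 cluster with Gbp2, share an ISRE-like match of the same letters. Whether the windows of this cluster are separate cases was not tested. A match is a run of letters and not a measured binding site. The ISRE-like letters were shared by the genes that passed the test below, Gbp2 and Irgm1, and by Gbp3, Gbp7, Irgm2 and Igtp, which did not pass.

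**Figure D1:**
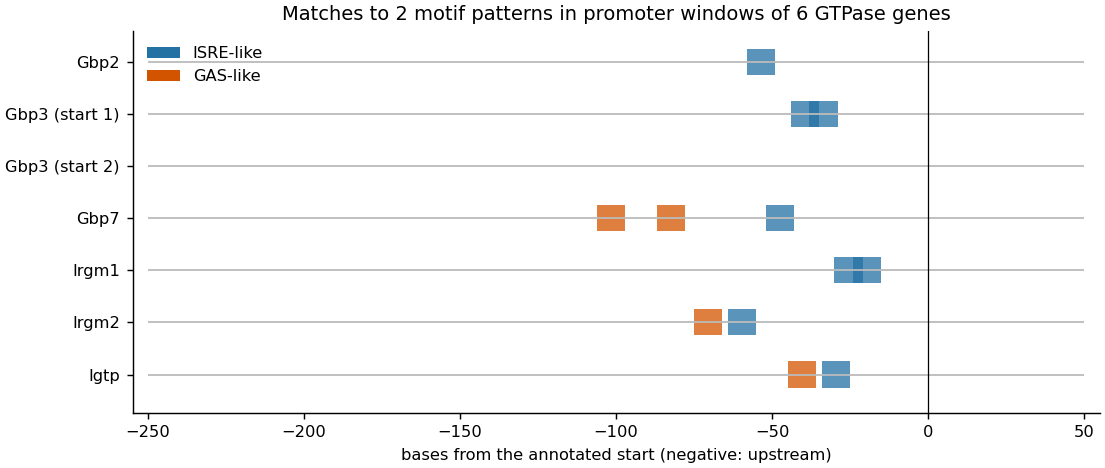
Matches to the ISRE-like and GAS-like patterns in 7 promoter windows of 6 GTPase genes, plotted by distance in bases from the annotated start (0, vertical line; negative values are upstream). Overlapping matches appear darker. 6 of the 7 windows hold an ISRE-like match and 3 hold a GAS-like match, and all matches lie upstream of the RefSeq start.

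Library totals ranged from 17428528 to 22081904 counts, and 15628 genes passed the filter on low counts, all 10 GTPase genes among them. Socs3, the feedback inhibitor induced by STAT3, showed that both treatments were registered: it stood at 7.81 and 7.08 CPM (counts scaled to library size by TMM) with PBS, at 248 and 254 CPM with WT IL-22 and at 25.3 and 32.0 CPM with 22-B3. The colon markers Car1, Cdx2, Aqp8, Muc2 and Krt20 were present in every library, while 5 small-intestine markers summed to between 3.27 and 6.74 CPM and Defa24 was at 0. The PBS libraries differed least from each other: the SD of the log2 difference between replicates over all tested genes was 0.25 with PBS, 0.40 with WT IL-22 and 0.48 with 22-B3.

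Compared per unit of length, in FPKM, which scale the fragments counted by gene length and library total, the families were led by Gbp2 in all 3 groups. With PBS, Gbp2 stood at 17.0 ± 1.34 FPKM (mean ± SD), followed by the 3 regulatory IRGs, Irgm1 at 8.29 ± 0.729, Irgm2 at 6.58 ± 0.662 and Igtp at 5.73 ± 0.433 FPKM. Next came Gbp3 at 5.03 ± 0.602, Iigp1 at 3.43 ± 0.191 and Gbp7 at 2.54 ± 0.514 FPKM. The 3 chromosome 5 genes were lowest, Gbp9 at 1.57 ± 0.313, Gbp4 at 0.988 ± 0.119 and Gbp8 at 0.580 ± 0.315 FPKM. Among neighbours in this order, Igtp and Gbp3 overlapped between libraries and the other pairs did not. The order of means with 22-B3 was that of PBS, from Gbp2 at 18.4 ± 3.40 FPKM to Gbp8 at 0.398 ± 0.230 FPKM. With WT IL-22, Gbp3, at 8.47 ± 2.52 FPKM, moved ahead of Igtp, at 7.19 ± 0.694 FPKM, but the libraries of these genes overlapped.

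The 10 genes summed to 52.5 and 51.0 FPKM in the PBS libraries, 93.5 and 123 FPKM with WT IL-22, and 61.8 and 45.7 FPKM with 22-B3. Both WT IL-22 libraries lay above all others, and the 22-B3 libraries lay on either side of the PBS pair. The share of Gbp2 in this sum was 30.6% and 35.2% for the PBS libraries, 55.2% and 57.7% for the WT IL-22 libraries and 33.6% and 34.9% for the 22-B3 libraries. Without Gbp2 the other 9 genes summed to 36.4 and 33.1 FPKM with PBS, 41.8 and 51.9 FPKM with WT IL-22, and 41.0 and 29.8 FPKM with 22-B3. Without Gbp2, then, WT IL-22 replicate 1 was within 1 FPKM of 22-B3 replicate 1.

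**Figure D2:**
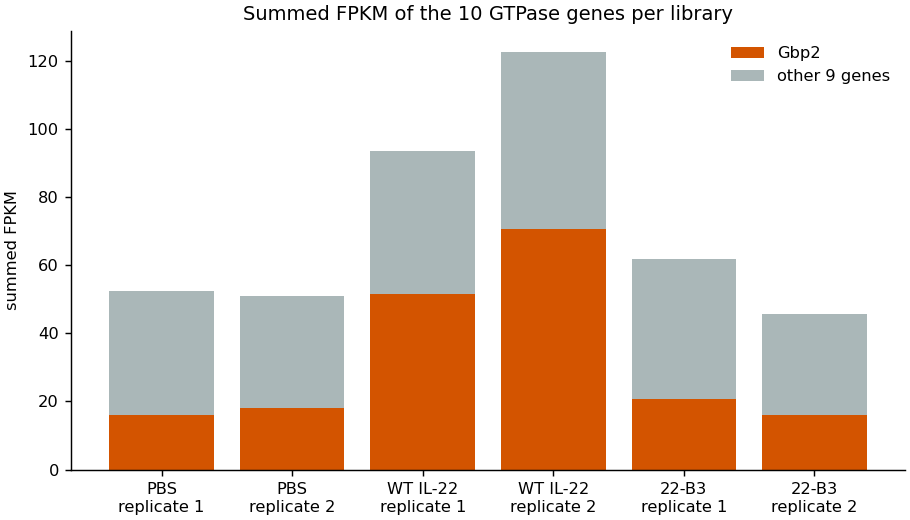
Summed FPKM of the 10 GTPase genes in each of the 6 libraries, split into Gbp2 (orange) and the other 9 genes (grey). The WT IL-22 bars reach 93.5 and 123 FPKM against 45.7 to 61.8 FPKM elsewhere, and Gbp2 is more than 55% of the bar in both of them.

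WT IL-22 against PBS asks what the native cytokine does to these genes within 6 h. Of the 10 genes, 2 rose, Gbp2 and Irgm1, and 0 fell at an edgeR adjusted p under 0.05, with 4 genes at an unadjusted p under 0.05. DESeq2 called 3 higher, Gbp3 being the third. Among all genes tested, 9.9% rose and 6.74% fell. The median log2 change of the 10 genes was 0.22, against -0.01 over all genes tested, and 6 of the 10 changes were positive. Both WT IL-22 libraries were above both PBS libraries for 5 of the 10 genes (34.2% of all genes tested) and below them for 0 (35.3%). In bulk tissue, a change in the number of cells of a type and a change in RNA per cell cannot be told apart.

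Among the GBPs, Gbp2, a lipid-anchored GBP that restricts Toxoplasma in mice, responded to WT IL-22. It stood at 40.1 and 46.4 CPM with PBS, at 126 and 175 CPM with WT IL-22 and 51.2 and 42.6 CPM with 22-B3, from 765 to 3933 raw counts per library. Both WT IL-22 libraries were well above the other 4, which overlapped. The rise with WT IL-22 was 3.47-fold, a log2 change of 1.80 (SE 0.193, 95% interval 1.36 to 2.24, edgeR adjusted p = 0.00162). It passed in all 13 alternative settings, where the log2 change ranged from 1.52 to 1.99.

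Gbp3, from the same cluster, stood at 14.5 and 12.7 CPM with PBS and at 17.4 and 27.0 CPM with WT IL-22. The WT IL-22 libraries were both above the PBS pair but far apart from each other, and the log2 change of 0.70 (SE 0.253) missed the threshold (edgeR adjusted p = 0.0862). Without 22-B3 replicate 1 or 2 in the shared estimate of spread it passed (edgeR adjusted p = 0.041 and 0.0349). It also passed in a fit of the PBS and WT IL-22 libraries (0.0361), without the low-count filter (0.0493) and with DESeq2 (adjusted p = 0.0487), within a range of 0.0349 to 0.417 over all alternatives. Without WT IL-22 replicate 2 the log2 change was 0.33. Gbp7, which in mouse macrophages helps to assemble the NADPH oxidase on vacuoles, stood at 16.0 and 12.4 CPM with PBS and at 15.2 and 16.6 CPM with WT IL-22, groups that overlapped (log2 change 0.17, SE 0.208, edgeR adjusted p = 0.598).

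The chromosome 5 genes Gbp4, Gbp8 and Gbp9 stood between 0.800 and 6.93 CPM in the PBS and WT IL-22 libraries, and their groups overlapped. Their log2 changes with WT IL-22 were -0.07 (95% interval -0.70 to 0.57) for Gbp4, -0.56 (-1.83 to 0.71) for Gbp8 and -0.17 (-0.97 to 0.63) for Gbp9. The upper bounds were a rise of 1.48-fold for Gbp4, 1.63-fold for Gbp8 and 1.55-fold for Gbp9. The lower bounds were 0.616, 0.282 and 0.512 times the PBS level in the same order. These bounds surround the estimates and are not limits of detection.

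Of the regulatory IRGs, Irgm1, which is needed for autophagy and mitochondrial quality control in mouse cells, stood at 33.5 and 30.6 CPM with PBS, at 46.0 and 49.0 CPM with WT IL-22 and 49.2 and 41.1 CPM with 22-B3. All 4 libraries from cytokine-treated mice were above both PBS libraries, and the WT IL-22 and 22-B3 libraries overlapped. With WT IL-22 Irgm1 rose 1.48-fold, a log2 change of 0.57 (SE 0.152, 95% interval 0.22 to 0.91, edgeR adjusted p = 0.0377). This call was lost without any 1 of the PBS or WT IL-22 libraries: the edgeR adjusted p was 0.21 and 0.307 without PBS replicate 1 and 2, and leaving out WT IL-22 replicate 1 or 2 it was 0.149 or 0.126; with upper-quartile scaling it was 0.0709 (range over all alternatives 0.00754 to 0.307). The log2 change itself stayed between 0.45 and 0.64.

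Irgm2, which restrains the caspase-4 inflammasome in mouse cells, stood at 24.3 and 21.8 CPM with PBS and at 28.1 and 34.4 CPM with WT IL-22. The groups did not overlap, but the log2 change of 0.44 (SE 0.179) did not pass (edgeR adjusted p = 0.117, and 0.0462 without 22-B3 replicate 2, in a range of 0.0462 to 0.481 over all alternatives). Igtp, whose transcript shares 162 exon bases with Irgm2, stood at 10.9 and 12.5 CPM with PBS and at 13.1 and 15.2 CPM with WT IL-22, again without overlap (log2 change 0.28, SE 0.190, edgeR adjusted p = 0.332). The effector Iigp1 (ENSMUSG00000054072, chr18:60376029-60392627, plus strand) stood at 11.0 and 10.6 CPM with PBS and at 7.57 and 13.6 CPM with WT IL-22. Its WT IL-22 libraries lay on either side of the PBS pair (log2 change -0.03, 95% interval -0.66 to 0.60, edgeR adjusted p = 0.955).

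**Figure D3:**
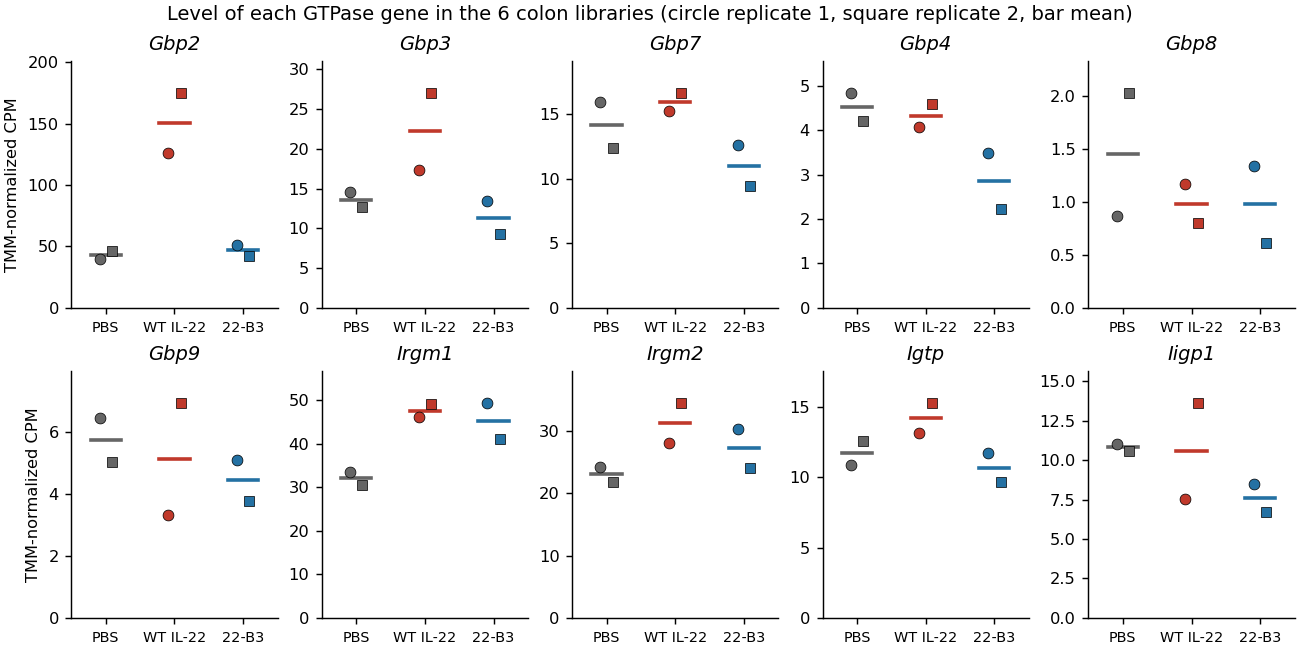
TMM-normalized CPM of the 10 GTPase genes in each library (circles replicate 1, squares replicate 2, bars the mean of 2), on axes that start at 0 and differ between panels. Gbp2 at 126 and 175 CPM is the gene whose WT IL-22 libraries stand farthest above the rest, and Irgm1 is above both PBS libraries in all 4 libraries of the cytokine groups.

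22-B3 against PBS asks the same question of the engineered variant, against the same PBS libraries. None of the 10 genes passed in either direction: edgeR called 0, with Irgm1 and Gbp4 making 2 at an unadjusted p under 0.05, and DESeq2 also called 0. Over all genes tested, 0.947% rose and 0.154% fell. Both 22-B3 libraries were above both PBS libraries for 1 gene, Irgm1 (27.7% of all genes tested), and below both for 2, Gbp4 and Iigp1 (25.5%). The median log2 change of the 10 genes was -0.31, against 0.01 over all genes tested, and 3 of the 10 changes were positive.

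Gbp2 with 22-B3 differed from PBS by a log2 change of 0.12 (95% interval -0.32 to 0.55, edgeR adjusted p = 0.77), so the upper bound was a 1.46-fold rise. Without 22-B3 replicate 1 this value was -0.05. Irgm1 differed from PBS by a log2 change of 0.50 (SE 0.152, 95% interval 0.15 to 0.84), close in size to its value with WT IL-22, but did not pass (edgeR adjusted p = 0.158). It passed without 22-B3 replicate 2 (edgeR adjusted p = 0.0263, in a range of 0.0263 to 0.79 over all alternatives). Gbp4 stood at 4.83 and 4.21 CPM with PBS and at 3.48 and 2.23 CPM with 22-B3, that is, -0.66 on the log2 scale (SE 0.289, edgeR adjusted p = 0.271). Iigp1 stood at 8.47 and 6.68 CPM with 22-B3, below both PBS libraries, at -0.51 on the log2 scale (SE 0.284, edgeR adjusted p = 0.364). The other 6 genes had log2 changes from -0.56 for Gbp8 to 0.24 for Irgm2.

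22-B3 against WT IL-22 tests the difference between the cytokine and its variant at 1 dose and time. Of the 10 genes, 1 was lower with 22-B3, Gbp2, and 0 were higher, against 0.0704% lower and 0.032% higher over all genes tested. The unadjusted p was under 0.05 for 3 genes, Gbp2, Gbp3 and Gbp7. All 10 log2 differences were below 0, with a median of -0.45, against 0.00 over all genes tested. Both 22-B3 libraries were below both WT IL-22 libraries for 5 genes, Gbp2, Gbp3, Gbp4, Gbp7 and Igtp (17.3% of all genes tested), and above both for 0 (17.6%).

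Gbp2 was 3.21-fold lower with 22-B3 than with WT IL-22, a log2 difference of -1.68 (SE 0.193, 95% interval -2.12 to -1.24, edgeR adjusted p = 0.023). The call was lost without PBS replicate 1, PBS replicate 2 or WT IL-22 replicate 2 (edgeR adjusted p = 0.0766, 0.0796 and 0.0802, the last being the highest of all alternatives, against a lowest of 4.71e-13 with DESeq2). The log2 difference then stood at -1.68, -1.68 and -1.43. Gbp3 stood at 13.4 and 9.30 CPM with 22-B3, below both WT IL-22 libraries, a log2 difference of -0.97 (SE 0.256) that did not pass (edgeR adjusted p = 0.289, and 0.0437 without 22-B3 replicate 1, in a range of 0.0437 to 0.661). Gbp7 stood at 12.6 and 9.41 CPM with 22-B3, again below both WT IL-22 libraries (log2 difference -0.53, SE 0.210, edgeR adjusted p = 0.476). For Irgm1 the difference was -0.07, with a 95% interval from -0.42 to 0.27 (edgeR adjusted p = 0.89), which places the 22-B3 level between 0.750 and 1.21 times the WT IL-22 level. Whether Gbp2 and Irgm1 differ in how they respond to the variant was not tested.

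**Figure D4:**
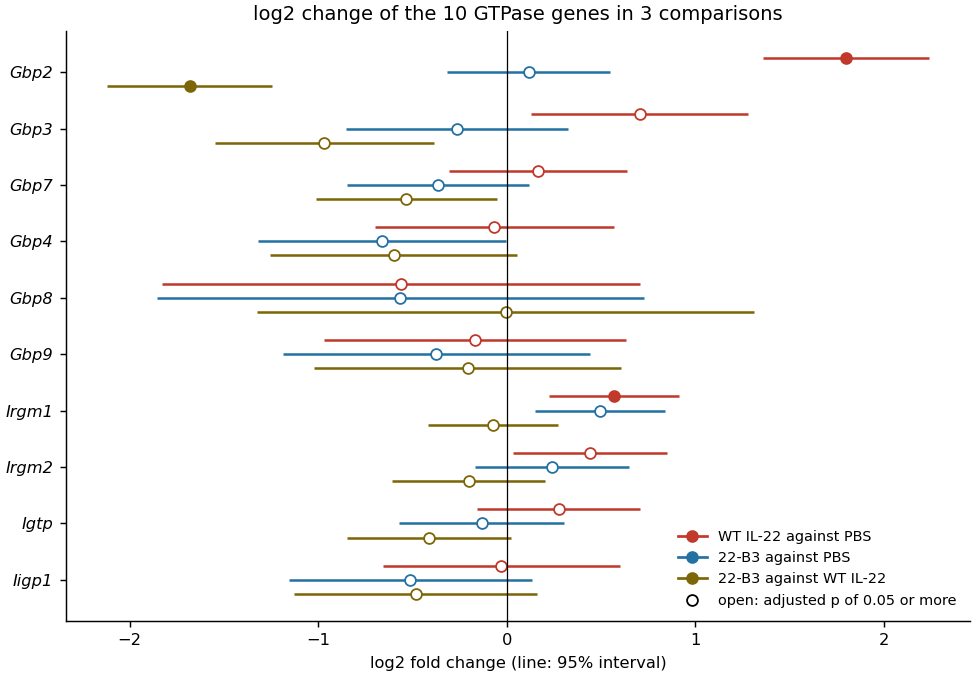
Fitted log2 change of each GTPase gene in 3 comparisons, with its 95% interval as a line. Filled points passed at an edgeR adjusted p under 0.05 and open points did not. The 3 filled points are Gbp2 at 1.80 and Irgm1 at 0.57 for WT IL-22 against PBS and Gbp2 at -1.68 for 22-B3 against WT IL-22.

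Within each pair of replicates, most of the 10 genes differed in 1 direction. In the WT IL-22 pair, 9 of the 10 were higher in replicate 2, with a median log2 difference of 0.25, and in the 22-B3 pair 0 of 10 were higher in replicate 2, with a median of -0.36. In the PBS pair, 3 of 10 were higher in replicate 2, with a median of -0.14. Over all tested genes the median difference was 2.88e-05 with WT IL-22, -0.006 with 22-B3 and 0.001 with PBS. The SD over all tested genes was 0.40, 0.48 and 0.25 in the same order, so each median of the 10 genes was within 1 SD. The share of all tested genes higher in replicate 2 was not counted. Markers of several cell types differed within the same pairs. The 11 T and NK cell markers summed to 14.0 and 18.4 CPM with PBS, at 10.3 and 15.6 CPM with WT IL-22 and 12.6 and 8.63 CPM with 22-B3. The 6 dendritic cell markers summed to 18.2 and 18.1, 12.6 and 19.3, and 15.9 and 13.3 CPM in the same order. Both lists were thus higher in WT IL-22 replicate 2 and in 22-B3 replicate 1, as were most of the GTPase genes, while in the PBS pair the T and NK cell sum was higher in replicate 2. The macrophage, B and plasma cell, endothelial and fibroblast sums given next also had the higher value in WT IL-22 replicate 2 and in 22-B3 replicate 1. No marker of the T and NK cell or dendritic cell list was at 0 in all 6 libraries. The part of these cells in the GTPase values was not tested.

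Between groups, other marker lists shifted. The 8 macrophage markers summed to 580 and 599 CPM with PBS, at 269 and 374 CPM with WT IL-22, and 386 and 382 CPM with 22-B3, and 4 of 8 fell with WT IL-22 (Lyz2, C1qa, C1qb and C1qc). The 7 smooth muscle markers summed to 12604 and 12711, 6151 and 8767, and 8721 and 10864 CPM, with 4 of 7 lower with WT IL-22. The 8 epithelial markers summed to 9588 and 9855, 11221 and 10849, and 11103 and 11757 CPM, with 2 of 8 higher with WT IL-22, Cdh1 and Vil1. The 6 endothelial markers summed to 133 and 124, 141 and 151, and 134 and 128 CPM, with Kdr higher with WT IL-22. The 7 B and plasma cell markers summed to 550 and 539, 341 and 391, and 402 and 335 CPM, with Igj, the J chain gene, lower with WT IL-22. The 6 fibroblast markers summed to 1811 and 1800, 1287 and 1928, and 1576 and 1459 CPM, with Dcn lower with WT IL-22. No list had a marker at 0 in all libraries, and with 22-B3 against PBS edgeR called 0 markers of these 6 lists. The unadjusted p was then under 0.05 for 3 epithelial, 3 macrophage, 4 B and plasma cell, 2 fibroblast, 1 endothelial and 0 smooth muscle markers, and DESeq2 called 3 B and plasma cell, 1 macrophage and 1 fibroblast marker. Without 22-B3 replicate 1, edgeR called 5 of 7 B and plasma cell markers lower with 22-B3, and without 22-B3 replicate 2 it called 2 epithelial markers higher and 1 macrophage marker lower. Leaving out WT IL-22 replicate 1 or 2 also gave 1 lower macrophage marker in that comparison. With WT IL-22 against PBS, edgeR called 0 markers of the 6 lists without PBS replicate 1 or 2. Without WT IL-22 replicate 1 it called 1 macrophage marker, and without WT IL-22 replicate 2 it called 4 macrophage, 4 smooth muscle and 2 fibroblast markers, all lower. Without 22-B3 replicate 1 or 2 the lower B and plasma cell markers became 4. Their part in the GTPase values was not tested.

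Of the other GBP and IRG genes, 14 were found in the tables and 11 passed the filter on low counts. In each comparison edgeR and DESeq2 called 0 of them, with 2, 0 and 2 at an unadjusted edgeR p under 0.05 in the order in which the comparisons are described above. Their median log2 changes, in the same order, were 0.07, -0.35 and -0.31. Gm12250, which RefSeq lists under the synonym Irgb10, a mouse IRG that acts on bacterial membranes, stood at 2.16 and 2.60 CPM with PBS, at 3.41 and 5.02 CPM with WT IL-22 and 2.47 and 1.56 CPM with 22-B3. Its WT IL-22 libraries were above the other 4, but the log2 change of 0.82 (SE 0.337) against PBS did not pass (edgeR adjusted p = 0.119). The effectors Tgtp1 and Tgtp2, which are near-identical copies, stood between 1.17 and 4.18 CPM with overlapping groups in WT IL-22 against PBS. The entries named Gbp5 and Gbp6 are uncertain, since their identifiers belong to Gbp2b and Gm43302 in GENCODE M21, and the deposited model of the former spans Gbp7 and Gbp3.

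In interferon-γ signalling, upstream of both families, the count of genes called depended on the fit. Ifng itself had at most 1 count in any library. Of the 10 tested genes of this list, 2 rose with WT IL-22 and 0 fell. The list's median log2 change was 0.40, 7 of the 10 had an unadjusted p under 0.05, and DESeq2 called 6 higher. Irf8, an interferon regulatory factor of myeloid and other cells, rose by 0.57 (edgeR adjusted p = 0.0241). Socs1, a feedback inhibitor of JAK kinases, rose from 3.08 and 2.76 CPM to 6.63 and 6.40 CPM, or by 1.16 in log2 (edgeR adjusted p = 0.0207). Irf1, a direct activator of GBP genes in mouse cells, stood at 81.9 and 83.8 CPM with PBS, at 118 and 105 CPM with WT IL-22 and 115 and 103 CPM with 22-B3, with a log2 change of 0.42 that did not pass (edgeR adjusted p = 0.0665). The log2 changes of Jak1, Jak2 and Ifngr1 were 0.44, 0.51 and 0.38 and that of Ifngr2 -0.39, none of which passed. With 22-B3 edgeR called 0 genes of this list (3 at an unadjusted p under 0.05, DESeq2 0), and 3 higher without 22-B3 replicate 2. Without either PBS library or either WT IL-22 library in turn, edgeR called 0 genes of the list with WT IL-22. Without either 22-B3 library, and in the fit of the PBS and WT IL-22 libraries, it called 6 higher and 1 lower.

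Of 25 other interferon-induced genes, 10 rose with WT IL-22 and 0 fell (median log2 change 0.44). The log2 changes of the 6 with the smallest p were 2.54 for Zbp1, a sensor of Z-form nucleic acids, 2.41 for Oasl2, 3.21 for Oas3 and 2.59 for Oas2, genes of the oligoadenylate synthetase family, 1.50 for Ifit1 and 1.23 for Isg15, a ubiquitin-like modifier. With 22-B3 against PBS, 1 rose, Zbp1, by 1.81 (edgeR adjusted p = 0.00186; median of the list 0.12). In 22-B3 against WT IL-22, 2 were lower, Oasl2 by a log2 difference of -1.51 and Ifit1 by -1.36 (edgeR adjusted p = 0.0398 and 0.029, median of the list -0.41). DESeq2 called 7 lower in this comparison and 3 higher in 22-B3 against PBS. In WT IL-22 against PBS it called 11 higher and 1 lower. The count of 10 became 4 without PBS replicate 1, 4 without PBS replicate 2, and 6 when WT IL-22 replicate 1 was left out. Zbp1 with 22-B3 was not called without either PBS library, where 0 genes of the list passed, and without 22-B3 replicate 2 there were 6 higher and 1 lower. The 2 lower genes in 22-B3 against WT IL-22 became 0 without either PBS library or either WT IL-22 library, and 7 without 22-B3 replicate 1.

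Of 9 tested genes of type I and III interferon signalling, Stat2 and Irf7 rose with WT IL-22, the former by 0.72 and the latter by 0.56 in log2 (edgeR adjusted p = 0.0269 and 0.028). Ifnb1, Ifnl2 and Ifnl3, which encode interferons, had 0 counts in all 6 libraries. Among 14 tested interferon-γ targets of antigen processing and chemokine type, 2 rose with WT IL-22, the immunoproteasome gene Psmb8 by 0.88 and the peptide transporter gene Tap1 by 0.90 (edgeR adjusted p = 0.0157 and 0.034). With 22-B3 against PBS, edgeR and DESeq2 called 0 genes of both lists (0 and 1 at an unadjusted edgeR p under 0.05), and edgeR called 1 interferon-γ target higher without 22-B3 replicate 2.

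In mice, the conjugation machinery of autophagy loads IRGs and GBPs onto microbial vacuoles. Of 14 autophagy genes, of conjugation, initiation and cargo binding, 0 rose and 4 fell with WT IL-22. Their median log2 change was -0.45. Gabarapl2, whose product (Gate-16) works with Irgm2, stood at 120 and 119 CPM with PBS, at 58.7 and 68.6 CPM with WT IL-22 and 69.5 and 97.2 CPM with 22-B3. With WT IL-22 it fell by 0.91 in log2 (edgeR adjusted p = 0.0143). Map1lc3a, Atg12 and Gabarapl1 fell by 0.80, 0.70 and 0.60. The smooth muscle marker sum given above was also lowest with WT IL-22, and its part in this result was not tested. Of 9 tested inflammasome genes, which act downstream of GBPs on bacteria in the cytosol, 2 rose with WT IL-22, Casp4 by 0.93 and Gsdmd by 0.45 (edgeR adjusted p = 0.0317 and 0.0453). With 22-B3 against PBS edgeR called 0 genes of either list (unadjusted p under 0.05 for 4 and 2), and with DESeq2 1 gene of each passed. Without 22-B3 replicate 2 edgeR called 5 autophagy genes lower, and 1 inflammasome gene higher without either 22-B3 library. Without either PBS library, edgeR called 0 genes in WT IL-22 against PBS in each of these last 4 lists. Without WT IL-22 replicate 1 it called 1, an interferon-γ target, and without WT IL-22 replicate 2 it called 1, an autophagy gene. Without either 22-B3 library it called 3 type I and III signalling genes and 5 interferon-γ targets higher and 8 autophagy genes lower.

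**Figure D5:**
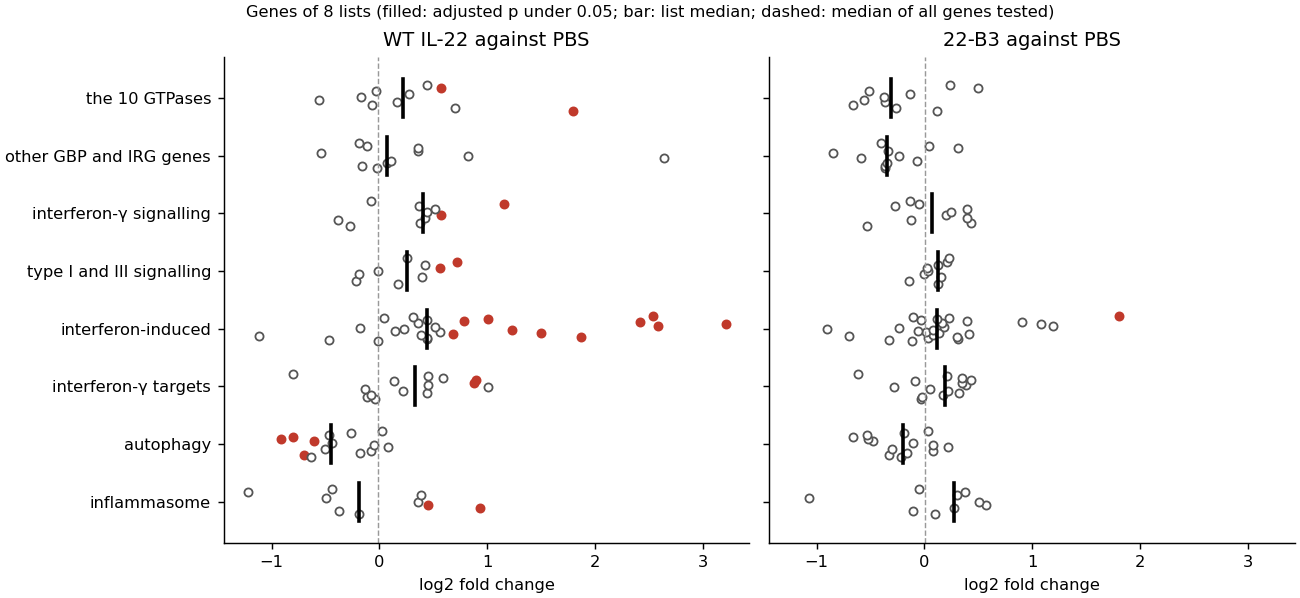
Fitted log2 change of each tested gene in 8 lists, for WT IL-22 (left) and 22-B3 (right) against the same PBS libraries. Filled points passed at an edgeR adjusted p under 0.05, bars are list medians, and the dashed line is the median of all genes tested. With WT IL-22, 10 of 25 interferon-induced genes and 2 of the 10 GTPases rose, and with 22-B3 Zbp1 is the single filled point.

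The genes whose levels followed the mean log2 CPM of the 10 GTPases most closely over the 6 libraries included Cd93, Pitpnc1, Il6st and Osmr, with Pearson correlations of 0.991, 0.985, 0.982 and 0.982. They were among the first 5 of 10973 genes compared. With 6 libraries that share 3 treatments and the pair differences above, this is a description only. Cd93 stood at 17.7 and 16.9 CPM with PBS, at 18.7 and 24.0 CPM with WT IL-22 and 17.0 and 13.9 CPM with 22-B3, so its highest library was WT IL-22 replicate 2 and its lowest 22-B3 replicate 2. The mean log2 CPM of the GTPases had the same highest and lowest libraries, at 4.05 and 3.19.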

How the data were processed

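RNA-seq of 6 mouse colon libraries was used, grouped by the treatment label. Per the submitters' processing notes, reads were aligned with STAR 2.5 and the build was mm10; the counter, annotation release and strand setting are not given in the sources used here. The deposited count table holds whole-number counts per gene without normalization, per the file headers. The deposited FPKM table was made by the authors from those counts, each value being the count divided by gene length and column total (largest relative deviation 5e-12).

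From the counts, genes were kept by filterByExpr (15628 of 35275), scaled by TMM and tested with the quasi-likelihood test of edgeR 4.0.16 in R 4.3.3, with 1 mean per group over all 6 libraries. P-values were Benjamini-Hochberg adjusted over all tested genes, with calls at an adjusted p under 0.05. SEs come from the log2 change and its F statistic. The test of WT IL-22 against PBS was also run on simulated counts with the same spread in every group, whereas the spread of the libraries differed between groups. Levels are TMM-normalized CPM and the authors' FPKM. The 13 alternatives included DESeq2 1.42.0, other scalings, no filter, a replicate block and each library left out.

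Motifs were searched in RefSeq promoters (GRCm38.p6), and shared 50-base words in GENCODE M21 transcripts. The text names all 10 GTPases, Socs3, genes of the other-family and interferon-γ signalling lists, the called genes of other lists (up to 6 by p) and the genes of most similar pattern among the first 5. The genes and lists were chosen by function, at a time when earlier results of these data were known. Protein sequences were not analysed here, and the results of 3 genes are not reported here.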

Additional observations from a re-analysis of the deposited data

How the results depend on the processing

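Over 13 alternatives for each gene's log2 change, 354 values kept their direction and side of the threshold, 10 gained and 11 lost significance, and 15 turned sign, none of them a value called in the report. Gbp2 with WT IL-22 against PBS passed in all 13. The 2 GTPases called in that comparison became 1 (Gbp2) with upper-quartile scaling and with the PBS libraries summed, and 4 (with Gbp3 and Irgm2) in a fit of the 4 libraries of those groups; leaving out 1 library gave 1 to 4. The 0 called in 22-B3 against PBS became 0 to 1 without 1 library. The 1 called in 22-B3 against WT IL-22 became 0 in the fit of those groups' libraries and with the PBS libraries summed, and 0 to 2 without 1 library. The cause was not tested.

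In the order of the comparisons above, a replicate block gave 3, 0 and 1 called GTPases, and over all genes 4504, 1063 and 183, against 2601, 172 and 16 without it. Same-numbered libraries deviated together at r = 0.062, 0.0488 and 0.29 in the 3 pairs of groups, the last being WT IL-22 with 22-B3. The labels name no pairing, and these correlations cannot decide whether the numbers pair the libraries. DESeq2 called 3218, 728 and 177 genes, and edgeR without a low-count filter 3071, 431 and 101. Fits of 2 groups called 5057, 135 and 4, and fits with the PBS libraries summed 154, 3 and 4. Leaving out 1 library gave 135 to 4971, 2 to 2262 and 4 to 757. Upper-quartile scaling moved the median log2 change with WT IL-22 from -0.01 to -0.13. The split of higher and lower calls went from 1547 and 1054 to 1090 and 1566. With that scaling the log2 change of Gbp2 was 1.68, beside the median of -0.13. In the main fit it was 1.80, beside the median of -0.01.

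The sign changes concerned values that did not pass and arose without 1 library, and for Gbp8 also with upper-quartile scaling. For WT IL-22 against PBS the ranges were -0.18 to 0.0414 for Gbp4, -0.0016 to 0.37 for Gbp7, -1.04 to 0.17 for Gbp8, -0.82 to 0.24 for Gbp9 and -0.54 to 0.31 for Iigp1. For 22-B3 against PBS they were -0.0487 to 0.24 for Gbp2, -1.26 to 0.17 for Gbp8 and -0.31 to 0.0043 for Igtp. For 22-B3 against WT IL-22 they were -0.68 to 0.45 for Gbp8 (0.0029 with upper-quartile scaling), -0.64 to 0.42 for Gbp9 and -0.21 to 0.0497 for Irgm1. Gbp8, with the lowest counts, had the widest intervals.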
